A study of Mus musculus with 8 samples.

Results

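The core pluripotency factor genes described here are Pou5f1, Nanog, Sox2, Esrrb, Klf4, Klf2, Sall4, Prdm14, Fgf4 and Utf1, 10 of the 22367 protein-coding genes of the mouse annotation used. They were chosen by name as regulators and close targets of the embryonic stem cell state, and each was followed through its H3.3 peaks, meaning those on mm9 with any base in a window that opens 10 kb before the transcription start site (TSS) and closes 200 bp past the gene end. The data were H3.3-HA ChIP-seq peak lists from mouse embryonic stem cells (mESCs), with 1 list for each of 4 conditions: Hira-null day 15, WT day 15, Hira-null day 0 and WT day 0. Day 0 cells were undifferentiated and kept with LIF, and day 15 cells had been differentiated towards cardiomyocytes through embryoid bodies made in hanging drops. The WT cells were the W9.5 line and the Hira-null cells were Clone 104, a single clone. Both carried HA-tagged histone H3.3, so no untagged control was among the samples. Uncrosslinked chromatin was cut with micrococcal nuclease, and anti-HA antibody from a hybridoma pulled down the tagged nucleosomes. The series had 8 samples, 1 ChIP library and 1 input DNA library per condition. With no replicate ChIP, no difference below has a replicate error or a p-value, and every comparison is between single libraries. The genotype and the cell type could not be checked from peak positions.

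H3.3 is a histone H3 variant that is put into chromatin outside DNA replication. HIRA is part of the chaperone complex that places H3.3 at active genes, promoters and some enhancers, while ATRX and DAXX place it at heterochromatin and telomeres. The paper's introduction adds that, in undifferentiated mESCs, H3.3 at some transcription factor binding sites does not need HIRA. In mESCs, OCT4 (encoded by Pou5f1), SOX2 and NANOG bind each other's enhancers and those of Esrrb, Klf4, Fgf4 and Utf1, and this circuit is shut down on differentiation.

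The sequences that follow are from NCBIM37 (mm9) and show DNA under, or next to, the peaks on which the results turn. Capitals mark matches to any of 5 short motifs searched on both strands: the OCT4-SOX2 composite TTGTNATGC, the octamer-like ATGCNAAT, the ESRRB motif AAGGTCA, the KLF motif GGGNGTGG and the STAT motif TTCNNNGAA. The composite and octamer-like motifs share the letters ATGC and can overlap. The first 4 sequences hold a composite match, the Fgf4 site holds an octamer-like match in the untranslated region, and the last 3 are the middle of a WT day 0 peak named below.
Pou5f1 upstream peak, chr17:35640923-35641081, plus strand: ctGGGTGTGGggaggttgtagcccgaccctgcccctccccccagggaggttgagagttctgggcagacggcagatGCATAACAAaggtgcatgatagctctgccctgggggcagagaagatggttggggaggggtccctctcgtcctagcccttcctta
Utf1 peak past the gene end, chr7:147131509-147131667, plus strand: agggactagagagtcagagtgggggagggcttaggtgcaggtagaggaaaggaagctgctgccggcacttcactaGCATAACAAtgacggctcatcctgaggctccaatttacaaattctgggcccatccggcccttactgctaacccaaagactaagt
Esrrb intronic peak, chr12:87795860-87796018, plus strand: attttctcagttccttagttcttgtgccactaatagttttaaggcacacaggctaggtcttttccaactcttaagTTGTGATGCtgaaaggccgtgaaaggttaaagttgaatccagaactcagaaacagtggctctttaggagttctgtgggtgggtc
Nanog promoter, chr6:122657395-122657483, plus strand: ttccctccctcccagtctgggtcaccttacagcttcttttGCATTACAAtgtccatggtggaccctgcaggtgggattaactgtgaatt
Fgf4 3′ UTR site, chr7:152050294-152050323, plus strand: aaactctttgtttggATGCTAATgggatac
Nanog upstream peak, chr6:122652983-122653182, plus strand: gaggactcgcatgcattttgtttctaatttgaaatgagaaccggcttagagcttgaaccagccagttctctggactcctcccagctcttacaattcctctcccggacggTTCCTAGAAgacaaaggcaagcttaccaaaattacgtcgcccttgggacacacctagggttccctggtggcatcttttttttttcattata
Esrrb strongest peak, chr12:87839456-87839655, plus strand: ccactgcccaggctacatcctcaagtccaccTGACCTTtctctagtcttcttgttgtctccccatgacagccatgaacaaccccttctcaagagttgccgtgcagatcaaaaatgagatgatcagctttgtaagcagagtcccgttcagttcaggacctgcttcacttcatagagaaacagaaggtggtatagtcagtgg
Sall4 start-site peak, chr2:168594336-168594535, minus strand: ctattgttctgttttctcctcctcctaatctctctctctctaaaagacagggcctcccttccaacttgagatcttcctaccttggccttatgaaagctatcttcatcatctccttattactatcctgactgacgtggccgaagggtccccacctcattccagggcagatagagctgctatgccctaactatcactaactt

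At day 0, Hira-null cells had peaks at 2 of the 10 genes, Nanog and Esrrb, and WT cells had peaks at 8, all but Klf4 and Klf2. Among all protein-coding genes, 18.9% had a Hira-null day 0 peak and 33.6% had a WT day 0 peak. The 10 windows held 6 peaks in Hira-null cells and 26 in WT cells. Each of the 8 genes had fewer peaks in Hira-null than in WT cells, which was so for 26.2% of all genes, and 0 had more, against 8.87% of all genes. When only peaks scoring at least 100 were kept, 4 genes had fewer (Pou5f1, Sall4, Fgf4 and Utf1), against 12.3% of all genes, while Nanog had 2 in each genotype and Esrrb 3 in each. With lists of equal length, 5 genes had fewer, against 12.5% of all genes. In the study's terms a WT peak is HIRA-dependent if it overlaps none of the Hira-null peaks from that day. By this name, which describes lists and not a cause, 8 of the 10 genes had a HIRA-dependent peak at day 0, against 29.5% of all genes. Only a gene with a WT peak can have a HIRA-dependent peak or fewer Hira-null than WT peaks. Of the 7520 genes with a WT day 0 peak, 6591 had a HIRA-dependent peak and 5864 had fewer Hira-null peaks. The gene counts on both measures thus largely follow the count of genes with a WT peak. Of the 26 WT peaks, 22 (84.6%, exact Clopper-Pearson interval 65.1 to 95.6) were HIRA-dependent, against 72.7% (72.1 to 73.3) of all WT day 0 peaks. The intervals overlap one another and cover counting error over peaks only. With scores of at least 100, 7 of the 10 remaining WT peaks were HIRA-dependent, against 73.9% of all WT day 0 peaks of that score, so the share at these genes was then not above that of the list. Of the 26 WT peaks, 11 lay in Esrrb alone, so the peaks are not independent of one another.

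**Figure D1:**
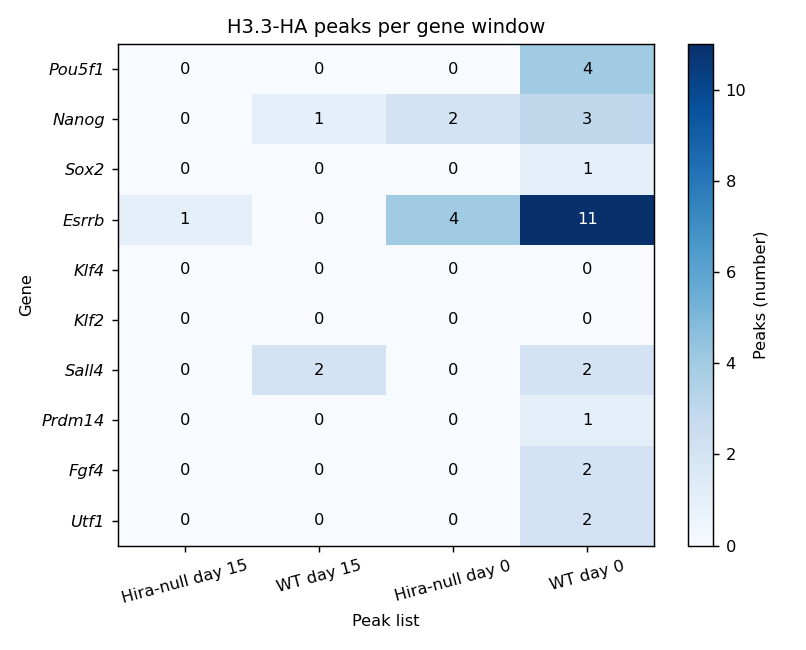
Number of H3.3 peaks touching the window of each of the 10 genes in each of the 4 lists (1 ChIP library each, no error bars). Esrrb had 4 peaks in Hira-null day 0 cells and 11 in WT day 0 cells, and Klf4 and Klf2 had none in any list.

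The lists themselves differed. They held 7332 peaks in Hira-null day 15 cells, 27272 in WT day 15 cells, 17706 in Hira-null day 0 cells and 22730 in WT day 0 cells. Median widths were 775, 952, 1514 and 1045 bp in the same order of lists. In that order, chromosome 8 held 285, 3428, 782 and 1655 peaks and chromosome 11 held 417, 5689, 858 and 2884. Chromosome X held 99, 24, 615 and 157. The WT lists thus had far more peaks on chromosomes 8 and 11 than the Hira-null lists. Shares over all peaks and all genes include these peaks, while of the 10 genes only Klf2 lies on either chromosome. Why the chromosomes differed was not tested. Each peak has a score from the peak caller MACS, 10 times the negative log10 of its p-value. No list held a score under 50. Scores grow with sequencing depth, which is unknown for these libraries, so ranks are given only within a list. Raw scores of different lists, printed side by side in places, are not on a common scale. Nor is the cutoff of 100 equally strict in each list. It kept 10507 of 17706 Hira-null and 7788 of 22730 WT day 0 peaks. A missing peak means only that no peak was called, not that H3.3 was absent. The part of depth in the differences between lists was not tested.

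Pou5f1 encodes OCT4, the POU factor at the centre of the circuit, and lies on the plus strand at chr17:35642982-35647721. Its window held 0 peaks in Hira-null day 0 cells and 4 in WT day 0 cells. The widest WT peak, chr17:35639225-35642823, ran over 3599 bp from 3.76 to 0.159 kb upstream of the TSS and stopped short of it. Its score of 365 ranked 326 in the WT day 0 list. The stretch just upstream of Pou5f1 is known to hold its distal and proximal enhancers. Another 2 WT peaks lay further upstream, centred 9.09 kb (score 59.5) and 6.58 kb (score 152) before the TSS. The fourth was centred in an intron, 3.53 kb past the TSS (score 87.0), and covered a further annotated protein-coding start at 3.35 kb. Together the WT peaks covered 47.3% of the window, rank 43 among 22367 genes. No Hira-null day 0 peak lay within 65.2 kb of the window, and the nearest one had the histocompatibility gene H2-Q6 as its nearest TSS. In WT cells the nearest peak outside the window was 1401 bp past it, beside Tcf19 (score 81.4).

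Nanog encodes a homeodomain factor that holds mESCs in self-renewal and lies at chr6:122657507-122664651 on the plus strand. Unlike Pou5f1, it had peaks in both genotypes at day 0, 2 in Hira-null and 3 in WT cells. Upstream, the Hira-null peak chr6:122651464-122654683 (3220 bp, score 154) lay wholly inside the WT peak chr6:122651393-122654694 (3302 bp, score 271). These ranked 7090 and 800 in their lists. Across the gene end, the Hira-null peak chr6:122661071-122666136 (5066 bp, score 446, rank 1168) and the WT peak chr6:122661349-122666995 (5647 bp, score 482, rank 143) shared 4788 bp. The WT list also held a peak of 1052 bp just before the TSS, chr6:122656300-122657351 (score 93.7), with no Hira-null peak over it. Peaks covered 40.4% of the Nanog window in Hira-null cells, rank 34, and 45.3% in WT cells, rank 49. At Nanog the peak at the promoter side was thus the only day 0 peak called in WT cells alone. It is lost with a score of at least 100, which leaves 2 peaks in each genotype. The large upstream and downstream peaks were in both lists, but stood further down the Hira-null list.

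**Figure D2:**
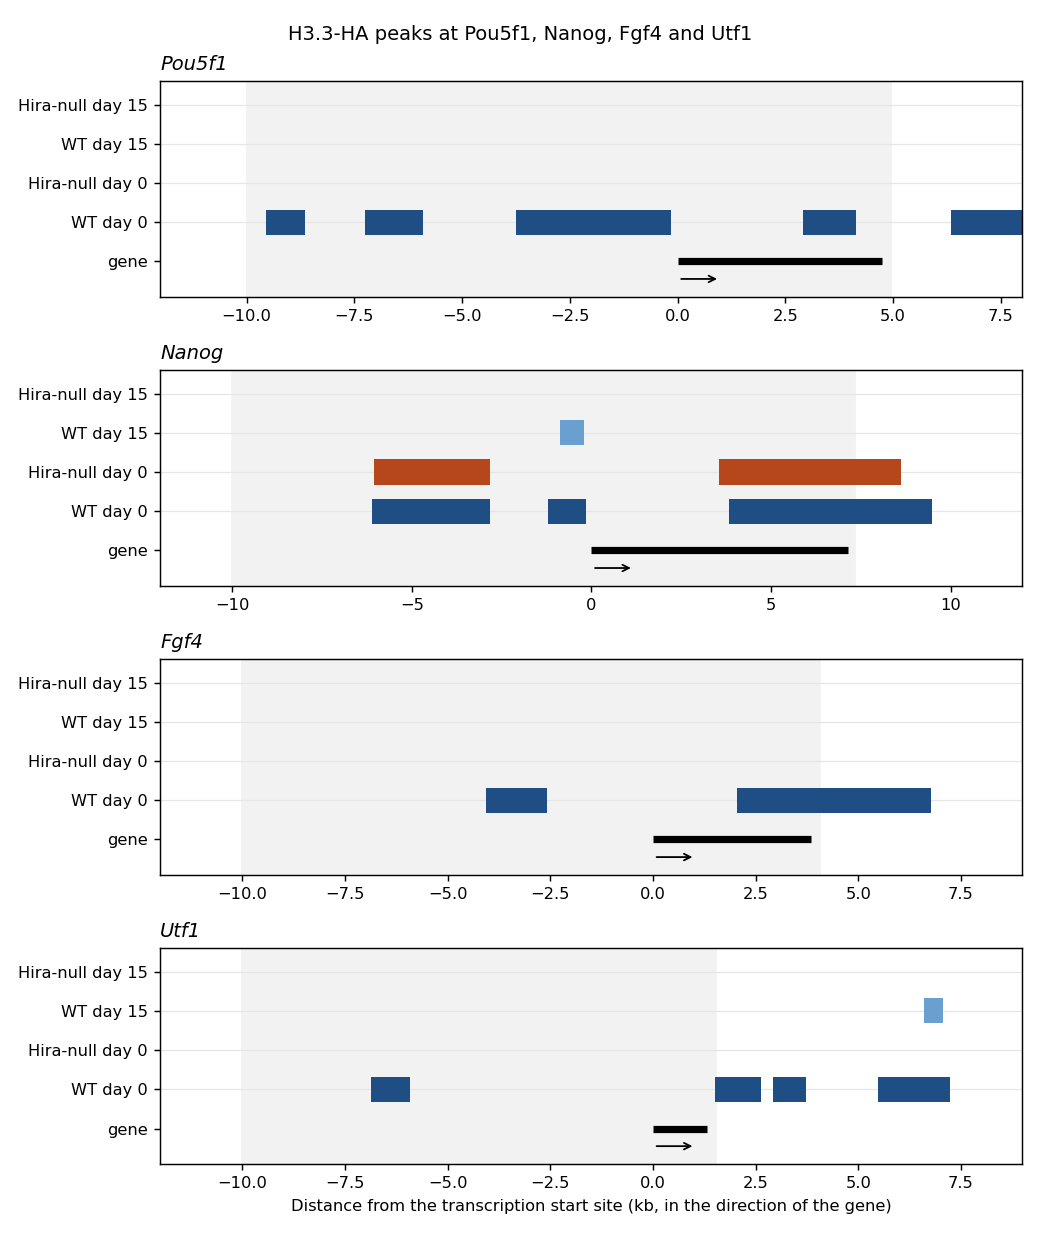
Peaks around Pou5f1, Nanog, Fgf4 and Utf1 by distance from the TSS in kb, with 1 row per list from Hira-null day 15 at the top to WT day 0 at the bottom, boxes for peaks, a black bar for the gene and a grey band for its window. At Nanog the 3220 bp upstream and 5066 bp downstream Hira-null day 0 peaks lie at the places of WT day 0 peaks, and at Pou5f1, Fgf4 and Utf1 only WT day 0 has boxes inside the band.

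Esrrb encodes an orphan nuclear receptor that acts beside NANOG. It is the longest of the 10 genes, at chr12:87702067-87862578 on the plus strand. Its window of 171 kb thus has more room for peaks than the median window, 15.2 kb over the 10 genes and 25.6 kb over all genes. It had 4 Hira-null and 11 WT peaks at day 0. By number of peaks it ranked 125 among all genes in Hira-null cells and 78 in WT cells, and by covered share, which takes length into account, 1940 (4.04%) and 1737 (9.01%) in the same genotypes. All 11 WT peaks were centred in introns, between 34.6 and 147 kb past the TSS, and 10 of them lay past a second annotated protein-coding start 60.5 kb into the gene. A further protein-coding start, 109 kb in, lay just before the peak centred at 110 kb. The start of a transcript not annotated as protein-coding, 143 kb in, lay inside the peak centred at 143 kb. The 11 WT scores ran between 50.3 and 276, and 8 of them were under 100. The WT peaks over 100 were centred 34.6 kb (score 177), 110 kb (102) and 137 kb (276) past the TSS. The others centred 93.8, 95.8, 102, 114 and 118 kb past it scored 65.6, 58.0, 55.2, 60.2 and 63.1 in that order. The last of the WT peaks, centred 143, 144 and 147 kb past it, scored 92.5, 50.9 and 50.3. Of the 11 peaks, 10 thus lay in the later stretch of the gene, most with scores under 100.

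Of the 11 WT peaks at Esrrb, 9 (81.8%) were HIRA-dependent, beside 72.7% of all WT day 0 peaks. Of these 9, 2 lay under 1 kb from a Hira-null peak, with 776 bp and 16 bp between them. At the highest-scoring one, 137 kb past the TSS, the Hira-null peak chr12:87838384-87840436 (score 112, rank 9539) and the WT peak chr12:87838553-87840559 (score 276, rank 751) shared 1884 bp. At 95.8 kb the Hira-null peak scored 143 (rank 7626) and the WT peak 58.0 (rank 18649), with 946 bp shared, so the order of ranks was the opposite at these shared places. Hira-null cells also had 2 peaks with no WT peak over them, chr12:87837303-87838022 (score 53.4) and chr12:87841072-87843864 (score 281, rank 3293). These flanked the highest-scoring WT peak, and the second ended 16 bp before the WT peak chr12:87843881-87845425 (score 92.5). They were the only Hira-null day 0 peaks at the 10 genes that no WT day 0 peak overlapped (2 of 6, 33.3%, interval 4.33 to 77.7, against 67.2% of all Hira-null day 0 peaks).

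**Figure D3:**
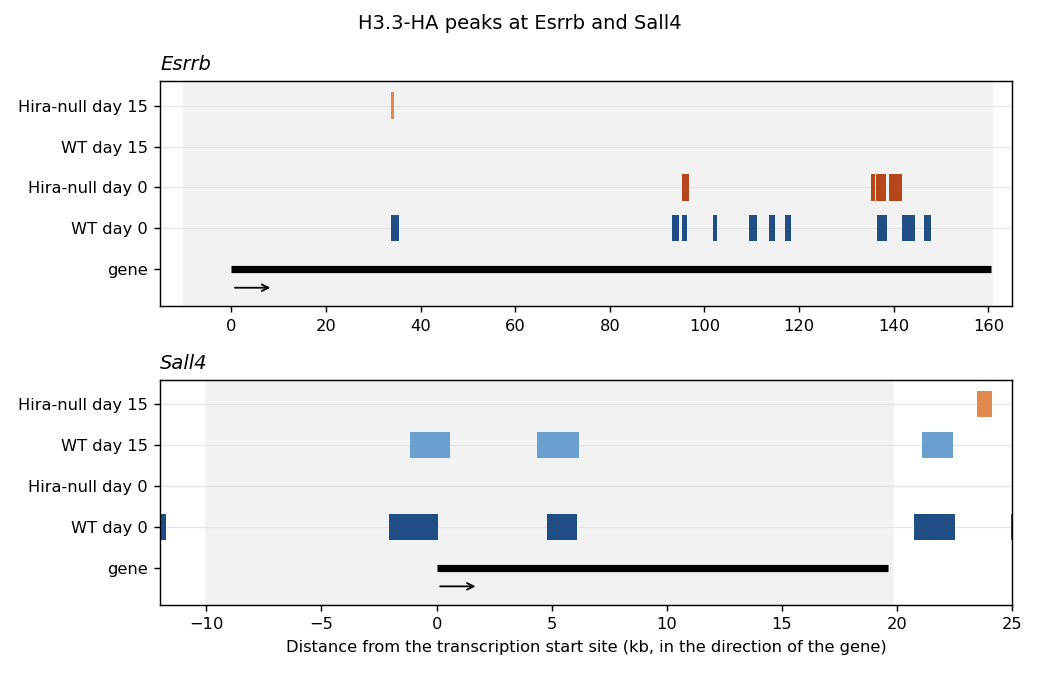
Peaks around Esrrb and Sall4 by distance from the TSS in kb, drawn by list from Hira-null day 15 at the top to WT day 0 at the bottom (boxes, peaks, joined where too close to resolve; black bar, gene; grey band, window). The 11 WT day 0 peaks of Esrrb are centred between 34.6 and 147 kb past the TSS, and the 2 WT peaks of Sall4 are present at both days.

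Sall4 encodes a zinc finger factor that works with OCT4 and NANOG, and lies on the minus strand at chr2:168573832-168593443. It had 0 peaks in Hira-null and 2 in WT cells at day 0. One WT peak covered the TSS, chr2:168593379-168595493 (score 126), and was the only WT day 0 peak at the 10 genes to do so. The other was inside the gene, centred 5.45 kb past the TSS (score 72.5). The annotated TSS is that of a transcript not annotated as protein-coding, and the first protein-coding start lies 0.742 kb inside the gene.

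Sox2 encodes the HMG-box partner of OCT4 and lies at chr3:34548927-34551383, within the long non-coding gene Sox2ot. Hira-null day 0 cells had 0 peaks in its window, and WT day 0 cells had 1, chr3:34550235-34551123 (889 bp, score 76.2), over the single exon. Since Sox2ot spans this place, the peak cannot be given to one of these genes. Prdm14, whose product represses FGF signalling and DNA methyltransferase genes in mESCs, likewise had 0 Hira-null peaks and 1 WT peak, chr1:13118420-13119160 (741 bp, score 71.6), centred 1.55 kb upstream of its TSS on the minus strand.

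Fgf4, a secreted growth factor gene and a known OCT4 and SOX2 target, lies at chr7:152047291-152051148. Its window held 0 Hira-null and 2 WT peaks at day 0. The larger WT peak, chr7:152049344-152054064, was 4721 bp wide, covered the gene end and scored 414 (rank 227). The known Fgf4 enhancer is in the 3′ untranslated region, which this peak covers. The other was centred 3.32 kb upstream (score 95.5). Together they covered 24.9% of the window, rank 290.

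Utf1, which encodes a chromatin-associated protein of undifferentiated cells, lies at chr7:147129688-147131011. It had 0 Hira-null and 2 WT peaks at day 0. The higher-scoring one, chr7:147131199-147132311 (score 181, rank 2228), began 188 bp past the gene end and so entered the window by only 13 bp. A further 2 WT peaks followed just outside, chr7:147132614-147133419 (score 82.8) and chr7:147135170-147136929 (score 151). The upstream WT peak, centred 6.39 kb before the TSS, scored 54.3. The known Utf1 enhancer lies downstream of the gene, on the side where these peaks were.

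Klf4 and Klf2 encode zinc finger factors that help keep mESCs undifferentiated, and neither had a peak in its window in any of the 4 lists. Klf4 lies on the minus strand at chr4:55540013-55545347 and Klf2 on the plus strand at chr8:74842932-74845555. In both WT lists the nearest peak outside each window was downstream. In the Hira-null lists the nearest peak to Klf2 was upstream, 43.5 kb away at day 15 and 39.1 kb away at day 0. Between 10 and 80 kb past the Klf4 TSS there were 0 peaks in Hira-null day 0 cells and 4 in WT day 0 cells, with scores between 51.4 and 151, the highest 68.2 kb past it. Further out, Hira-null day 0 cells had 3 peaks, centred 102, 103 and 131 kb past the Klf4 TSS, and WT day 0 cells had 3, centred 141, 143 and 147 kb past it, all with Rad23b as the nearest TSS. Between 10 and 40 kb past the Klf2 TSS there were 0 in Hira-null day 0 cells and 2 in WT day 0 cells, 3754 and 3135 bp wide, scoring 141 and 124. Upstream of Klf2, Hira-null day 0 cells had peaks centred at -49.9 and -90.2 kb from the TSS, and WT day 0 cells had 3, centred at -26.3, -47.4 and -53.7 kb. These stretches were drawn around peaks already seen. Chromosome 8, which holds Klf2, had 782 Hira-null and 1655 WT peaks at day 0, and 285 and 3428 at day 15. Whether the peaks near Klf2 differ from the rest of that chromosome was not tested.

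Peaks outside the windows were also counted at Sox2 and Prdm14. Between 80 and 130 kb past the Sox2 TSS, which takes in its known distal enhancer region, Hira-null day 0 cells had 2 peaks (scores 63.2 and 90.8, 2.51 kb in all) and WT day 0 cells had 8 (73.9 to 256, 9.32 kb). Both Hira-null peaks there overlapped WT peaks, which scored 159 and 256. Between 30 and 65 kb past the Prdm14 TSS both genotypes had 4 peaks, scoring 61.0 to 127 in Hira-null and 95.6 to 338 in WT day 0 cells. Prdm14 thus had as many Hira-null as WT peaks in this stretch, but they covered 5.16 kb in Hira-null and 8.06 kb in WT cells. Of these WT peaks, only those centred 52.7 and 42.1 kb past the TSS overlapped a Hira-null peak. Over the 150 kb on each side of the 10 windows there were 34 Hira-null and 76 WT day 0 peaks, from lists of 17706 and 22730. Of the 76, 64 (84.2%) had no Hira-null peak over them, against 72.7% of all WT day 0 peaks. These distances were chosen after the peaks had been seen, and flanking peaks may belong to neighbouring genes.

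**Figure D4:**
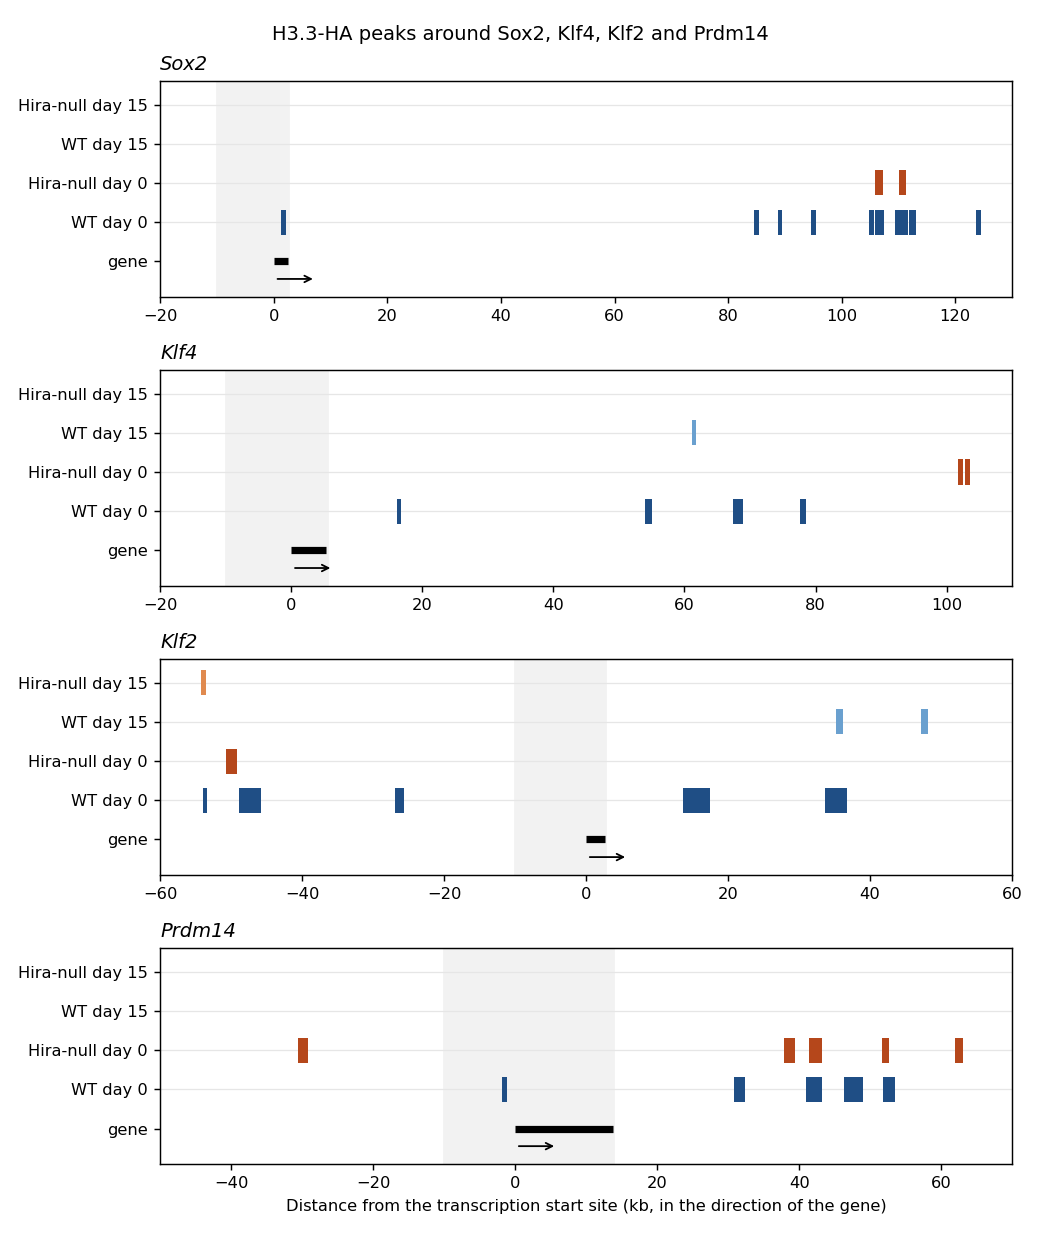
Peaks around Sox2, Klf4, Klf2 and Prdm14 by distance from the TSS in kb, drawn by list from Hira-null day 15 at the top to WT day 0 at the bottom (boxes, peaks; black bar, gene; grey band, window). Most peaks lie outside the grey bands, as with the 2 Hira-null and 8 WT day 0 peaks 80 to 130 kb past the Sox2 TSS.

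The 26 WT day 0 peaks had a median score of 89.7 (50.3 to 482) and a median width of 1366 bp (741 to 5647 bp). Of these, 6 (23.1%) were at least 2 kb wide, against 10.8% of all WT day 0 peaks, and 10 (38.5%) scored at least 100, against 34.3%. The 6 Hira-null peaks had a median score of 149 (53.4 to 446) and a median width of 2423 bp. By midpoint, 9 of the 26 WT peaks (34.6%) were upstream of the gene, 15 (57.7%) in its body and 2 (7.69%) past its end, while of all 16324 pairs of a gene and a WT day 0 peak 4890 were upstream, 10894 (66.7%) in the body and 540 (3.31%) past the end. The median share of a window covered by WT day 0 peaks was 8.70% over the 10 genes and 0 over all genes.

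Motif matches were counted in the 1000 bases around the midpoint of each WT day 0 peak. The composite was in 3 of 26 windows (11.5%), against 5.27% of all 22730. The ESRRB motif was in 9 (34.6% against 23.5%), the KLF motif in 12 (46.2% against 30.2%), the octamer-like motif in 5 (19.2% against 19.2%) and the STAT motif in 7 (26.9% against 29.8%). In the 300 bases around the midpoint the counts were 2 for the composite (7.69% against 2.43%), 5 for ESRRB (19.2% against 8.57%), 4 for KLF (15.4% against 10.4%), 0 for the octamer-like motif (8.82% of all) and 3 for STAT (11.5% against 10.8%). The composite and ESRRB motifs were thus above the whole-list share at both lengths, as was KLF, and the octamer-like motif was not. These shares rest on few windows, 11 of the 26 peaks lay in Esrrb, and the differences were not tested. Median GC content was 49.1% at the 10 genes and 45.1% over all WT day 0 peaks, and its part in these shares was not tested. The upstream Pou5f1 peak held 1 composite match in its 3599 bp, and 11.8% of windows of that length around WT day 0 peaks held one. The Utf1 peak past the gene end held 1 in 1113 bp, against 5.60%. Both peaks were without a Hira-null peak. At the other 6 genes with WT day 0 peaks, the one with the top score held no composite match. In promoters, read from 250 bases before to 50 after the TSS, the composite was found at Nanog alone of the 10 genes and at 0.621% of all promoters. The octamer-like and ESRRB motifs were in 0 of the 10 promoters (2.95% and 3.92% of all), KLF was in 2, Pou5f1 and Nanog (18.8% of all), and STAT in 1, Esrrb (7.94% of all). The Nanog match began 72 bases before the TSS, 83 bp past the edge of the WT day 0 promoter-side peak. A match is a run of letters and not a measured binding site.

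At day 15 the share of the 10 genes with a peak was below that of all genes in WT cells and near it in Hira-null cells. Hira-null cells had 1 peak at 1 gene (13.3% of all genes had a Hira-null day 15 peak) and WT cells had 3 peaks at 2 genes (37.1% of all genes had a WT day 15 peak). Of the 10 genes, 2 (Nanog and Sall4) had fewer Hira-null than WT peaks and a HIRA-dependent peak, a lower share than the 33.2% and 35.4% of all genes. Only a gene with a WT peak can be so counted, and these were the 2 that had one. Esrrb had more Hira-null than WT peaks, 1 against 0, as did 4.94% of all genes. All 3 WT peaks were HIRA-dependent (interval 29.2 to 100), beside 91.9% of all WT day 15 peaks, so the members' share was near that of the whole list. The day 15 cultures were mixed, and fewer cells of a type and less H3.3 per cell cannot be told apart.

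The Hira-null day 15 peak, chr12:87735892-87736540 (649 bp, score 73.0), lay in the Esrrb intron where WT day 0 cells had the peak chr12:87735744-87737572 (score 177) and where Hira-null day 0 cells had none. At Sall4, WT day 15 cells had chr2:168587242-168589080 (score 241) inside the gene and chr2:168592846-168594607 (score 185) over the TSS. The day 15 peak at Nanog, chr6:122656629-122657304 (676 bp, score 51.9), was close to the lowest score in its list.

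Between days, WT cells had fewer peaks at day 15 than at day 0 at 7 of the 10 genes, against 16.0% of all genes. At 6 of them, Pou5f1, Sox2, Esrrb, Prdm14, Fgf4 and Utf1, a WT day 0 peak was present and no WT day 15 peak was, against 11.4% of all genes. For 5 genes, Pou5f1, Sox2, Prdm14, Fgf4 and Utf1, the WT day 0 list was the only one of the 4 with a peak in the window, against 5.94% of all genes. At Pou5f1 and Utf1 this depends on the window edge. A WT day 15 peak lay 4.45 kb upstream of the Pou5f1 window (score 121) and another 5.07 kb downstream of the Utf1 window (score 50.2). Each overlapped a WT day 0 peak. With windows of 20 kb upstream, 3 of the 10 genes had a WT day 15 peak. Of the 26 WT day 0 peaks, 3 (11.5%, interval 2.45 to 30.2) were overlapped by a WT day 15 peak, against 25.7% of all WT day 0 peaks. They were the promoter-side Nanog peak and both Sall4 peaks, where 1285 and 1229 bp were shared between days. Sall4 thus had as many WT peaks at day 15 as at day 0. In Hira-null cells, 0 of the 6 day 0 peaks was overlapped at day 15 (interval 0 to 45.9), against 9.25% of all.

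**Figure D5:**
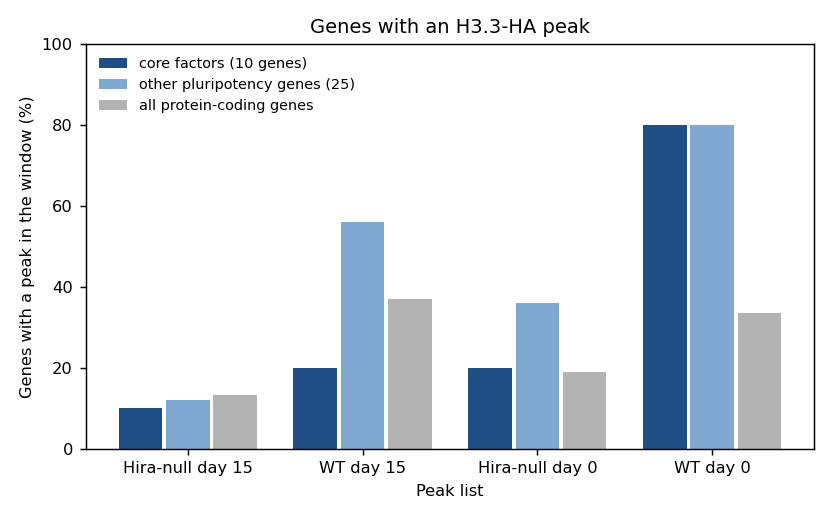
Percent of genes with a peak in each of the 4 lists (bars, 1 ChIP library each, no error bars) for the 10 core pluripotency factor genes, 25 other pluripotency genes and all 22367 protein-coding genes. For the 10 genes, 2 had a Hira-null day 0 peak and 8 a WT day 0 peak, while 18.9% and 33.6% of all genes did.

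Other genes of the pluripotency network were counted from a fixed list of 25, which includes LIF, NODAL and FGF pathway members. At day 0, 9 of the 25 had a Hira-null peak and 20 a WT peak, and 19 had fewer Hira-null than WT peaks. The exception in the other direction was Stat3, the transcription factor that LIF activates, with 1 Hira-null and 0 WT peaks. Etv5, an ETS factor downstream of FGF signalling, had 8 Hira-null and 9 WT day 0 peaks, and Tcf7l1, a repressor in the WNT pathway, had 0 and 7 in the same genotypes. At day 15, 3 of the 25 had a Hira-null peak and 14 a WT peak. At day 15, 2 of the 10 core genes had a WT peak. Among 8 Dppa, Rex1 and Lin28 genes, 3 had a Hira-null and 7 a WT day 0 peak, and 7 had fewer Hira-null than WT peaks. Among 7 Tet and Dnmt genes, 3 had a Hira-null and 5 a WT day 0 peak, and 3 had fewer. Of 10 cardiac factors, 1 had a Hira-null and 1 a WT day 0 peak, and at day 15 these counts were 2 and 6. Beside these, 18.9% of all genes had a Hira-null and 33.6% a WT day 0 peak, and at day 15 the shares were 13.3% in Hira-null and 37.1% in WT cells. No difference between these lists was tested.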

How the data were processed

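H3.3-HA ChIP-seq peak lists of Hira-null and WT mESCs at day 15 and day 0 were used, 1 list per condition, grouped by the sample labels. As the study's methods and the submitters' processing notes state, the authors aligned paired-end reads to mm9 with Bowtie, removed duplicates with Samtools and called peaks with MACS 1.4.2 at default settings. The deposited score is the authors' MACS score, 10 times the negative log10 of the peak p-value, per peak. Input libraries had no file used here, and read depth is unknown.

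Genes were the 22367 protein-coding genes of GENCODE mouse M1 on NCBIM37, the same build as mm9. 0 peaks ended past a chromosome end. A peak was assigned to each gene whose window it touched, and lists overlapped at 1 bp or more. Overlaps were checked with bedtools 2.31.1 (0 of 22730 and 0 of 27272 WT peaks differed) and tested on simulated data. Calculations ran in Python 3.11.15 with pysam 0.24.0, pandas 2.3.3, numpy 2.4.6, matplotlib 3.10.9 and scipy 1.17.1. Clopper-Pearson intervals were at 95%. No test was run, since each condition had 1 library.

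All 10 genes were named, with the peaks in their windows. Counts of genes with fewer Hira-null peaks and of Esrrb peaks were recomputed under alternatives chosen after seeing the data. Genes and lists were chosen with earlier results of these data known. Sequences were to come from composite matches and then the highest-scoring WT day 0 peaks of Pou5f1, Nanog, Esrrb and Sall4. For Nanog the upstream peak was printed instead, since the middle of the highest-scoring one is in an untranslated region. The Nanog promoter stretch, the Fgf4 site and the flanking distances were chosen after the data were seen. Alternatives were a score of at least 100, lists of equal length, and windows of 5 or 20 kb upstream or the gene body only. Others were window peaks with the gene as nearest TSS, merged peaks, other overlap rules and 300-base motif windows.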

Additional observations from a re-analysis of the deposited data

Results flagged for a closer look

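Esrrb was the gene at which the 2 days pointed opposite ways. The number of peaks in Hira-null minus WT cells was -7 at day 0 and 1 at day 15. Each day had 1 library per genotype, so the difference was not tested. With a score of at least 100 both values became 0: Esrrb then had 3 Hira-null and 3 WT peaks at day 0, and none at day 15. With lists of equal length the day 0 value was -1. The day 15 value rests on 1 Hira-null peak of score 73.0.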

How the results depend on the processing

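Day 0 counts of genes with a peak, 2 in Hira-null and 8 in WT cells, stayed within 1.5 times under each alternative run. Of 26 WT day 0 peaks at the 10 genes, 22 were HIRA-dependent. That count was 7 of 10 with a score of at least 100 and 7 of 9 (77.8%, against 77.3% of all peaks) with lists of equal length (each held to its 7332 highest-scoring peaks). With the gene body only it was 14, and the WT peaks left by that setting are not counted here. The genes with such a peak numbered 8, and 5 under each of these 3 settings, for which no share of all genes is given. Genes with fewer Hira-null than WT peaks numbered 8, against 26.2% of all genes. They numbered 4 with a score of at least 100 (12.3% of all genes) and 5 with lists of equal length (12.5%). With the gene body only they numbered 5, with no share of all genes to set beside it. With a score of at least 100, 2 of the 10 genes had a Hira-null and 6 a WT day 0 peak, against 12.5% and 16.2% of all genes.

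Day 15 values rest on 4 peaks. Genes with a Hira-null peak numbered 1, and 0 with a score of at least 100. Genes with a WT peak numbered 2, and 1 with a score of at least 100, with equal lists or with the gene body only. Genes with a HIRA-dependent peak, and genes with fewer Hira-null peaks, numbered 2, and 1 under the same 3 settings. HIRA-dependent peaks numbered 3, and 5 with windows of 20 kb upstream. WT day 0 peaks overlapped at day 15 numbered 3, and 1 with a score of at least 100 or equal lists. Fewer peaks pass by construction under the stricter settings. Windows of 5 kb, merged peaks and other overlap rules moved no count by over 1.5 times. The nearest-TSS setting could change no count, since it acted only on peaks in the windows. Each of those already had its own gene as the nearest TSS. Peaks outside the windows with a member as nearest TSS, such as those near Klf4 and Klf2, were not added by it. In 300-base windows the octamer-like, ESRRB, KLF and STAT motif counts of 5, 9, 12 and 7 were 0, 5, 4 and 3. Unknown depth limits every absence of a peak. No paired analysis was possible because each condition had 1 ChIP library and no test was run.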

Other observations

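The region 15 to 35 kb past the Nanog TSS, outside its window, had peaks in all 4 lists. There were 7 peaks in Hira-null day 15 cells (highest score 706), 3 in WT day 15 cells (170), 4 in Hira-null day 0 cells (660) and 3 in WT day 0 cells (325). The summed width was 10.3 kb in Hira-null and 3.44 kb in WT cells at day 15, and 11.5 kb in Hira-null and 6.94 kb in WT cells at day 0. At both days the Hira-null peaks covered more sequence there than the WT peaks, the opposite of the order at the Nanog window. This was not so for peak numbers over the wider surroundings. Within 150 kb on each side of the Nanog window there were 6 Hira-null and 25 WT peaks at day 0. At day 15 there were 10 Hira-null and 17 WT peaks. The stretch was chosen after the data were seen, and no test was run.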
